A study of Mus musculus with 23 samples.

Results

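Mitf, the 2 relatives Tfe3 and Tfeb, the upstream regulators Sox10 and Pax3, and the folliculin complex genes Flcn, Fnip1 and Fnip2 were followed across 23 melanoma tumors. These 8 genes were selected by name from the 56748 genes of the count table, and all 8 passed the filter on low counts. The list was proposed with results of these tumors known, and Mitf and Fnip2 were picked for their differences in the intratumoral tumors, so their values there are given as a description and without a test.

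The tumors grew from B16-F1 cells, a mouse melanoma line, in DBA/2J mice of 6 to 8 weeks. Mice received drugs by the intraperitoneal (IP) or the intratumoral (IT) route. CONTROL_IP received saline and CONTROL_IT received DMSO, the solvent of the drugs given by that route. PTX (pentoxifylline, a methylxanthine that inhibits phosphodiesterases) was given at 60 mg/kg, NCTD (norcantharidin, a demethylated form of cantharidin) at 3 mg/kg, and MIX was both at these doses. Each IP group held 2 tumors, CONTROL_IT, NCTD_IT and MIX_IT held 4 each, and PTX_IT held 3. The labels name the route as the batch, so that route, batch and solvent cannot be told apart. All tumors come from a single cell line, and the host is not the strain from which that line was derived.

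MITF is the basic helix-loop-helix leucine zipper factor that drives the melanocyte lineage and its pigment genes, and in melanoma its level is tied to the differentiated or invasive state of the cells. SOX10 and PAX3 bind the melanocyte promoter of Mitf, which also carries a cAMP response element (CRE). TFEB and TFE3 share the DNA-binding domain of MITF and drive lysosome and autophagy genes. Folliculin, together with FNIP1 or FNIP2, acts on the GTPases RagC and RagD at the lysosome, and through them lets mTORC1 hold TFEB and TFE3 in the cytoplasm. Libraries were made from the 3′ end of messenger RNA, and a level is given as CPM, the reads of a gene scaled to a fixed library total with TMM factors.

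Between 2861578 and 6702374 reads were counted on genes in a tumor, and 3 counts, the floor used here, correspond to 0.448 to 1.05 CPM. Amplified reads are not independent molecules, and this floor covers counting error only. The 7 melanocyte markers (Mlana, Pmel, Tyr, Dct, Tyrp1, Slc45a2 and Gpr143) were detected in every group, which bears on the label of melanoma. Xist, the RNA of the inactive X chromosome of female cells, differed between libraries of the same route. It had 5 to 36 counts in PTX_IT, 15 to 51 in NCTD_IT, 0 to 2 in CONTROL_IT and 0 in MIX_IT, and among the 8 IP tumors CONTROL_IP replicate 2 alone had counts (55). A sum was taken of 5 sex-linked genes, Xist and the Y-chromosome genes Ddx3y, Eif2s3y, Kdm5d and Uty. It was 2.57 to 21.2 CPM in CONTROL_IT and 13.1 to 52.5 in MIX_IT. In PTX_IT it was 1.28 to 11.6 CPM and in NCTD_IT 5.17 to 13.6, the same ranges as Xist alone. Nearly all of the sum was Xist there, so that sex and these 2 treatments can hardly be told apart.

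The upstream parts of 4 promoters are shown first, those of Mitf and Fnip2 because the results turn on these genes, and those of Flcn and Fnip1 as the partners of Fnip2. The sequences are RefSeq's for build GRCm38.p6, 250 bases before the start of transcription, 5′ to 3′ on the strand of the gene, and capitals mark a match to a searched motif. For Mitf the third of its 3 windows is given, the most 3′ one, at chr6:97991533-97991782 on the plus strand.
Mitf: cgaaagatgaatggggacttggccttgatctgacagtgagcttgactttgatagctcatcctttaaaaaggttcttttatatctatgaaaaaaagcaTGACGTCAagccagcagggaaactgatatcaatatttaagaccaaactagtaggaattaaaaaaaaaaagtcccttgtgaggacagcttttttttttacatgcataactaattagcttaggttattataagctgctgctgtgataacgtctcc
Fnip2, chr3:79567680-79567929, minus strand: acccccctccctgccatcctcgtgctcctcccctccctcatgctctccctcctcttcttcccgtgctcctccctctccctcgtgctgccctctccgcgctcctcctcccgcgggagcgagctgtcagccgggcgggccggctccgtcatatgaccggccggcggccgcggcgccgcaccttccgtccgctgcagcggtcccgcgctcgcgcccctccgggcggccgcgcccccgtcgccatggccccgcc
Fnip1, chr11:54437929-54438178, plus strand: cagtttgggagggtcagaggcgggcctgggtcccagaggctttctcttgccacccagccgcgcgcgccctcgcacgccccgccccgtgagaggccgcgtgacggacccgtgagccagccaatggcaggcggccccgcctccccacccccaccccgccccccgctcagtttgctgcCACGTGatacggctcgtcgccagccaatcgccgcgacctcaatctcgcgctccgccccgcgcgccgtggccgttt
Flcn, chr11:59810040-59810289, minus strand: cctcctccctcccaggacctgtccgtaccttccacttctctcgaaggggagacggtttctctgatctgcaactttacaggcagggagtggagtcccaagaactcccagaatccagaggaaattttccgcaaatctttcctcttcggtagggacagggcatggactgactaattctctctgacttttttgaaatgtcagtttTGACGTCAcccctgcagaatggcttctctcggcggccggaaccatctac
The 4 motifs were searched on both strands of windows of 300 bases, which reach 50 bases past the start. They were the E-box CACGTG, the core CATGTG of the M-box, the core TCACGTGA of lysosomal gene promoters, which contains the E-box, and the CRE TGACGTCA. The table held 11 windows for 6 of the 8 genes. The CRE was found in the third Mitf window, 153 bases before the start, and in that of Flcn, 49 bases before the start, and it occurs in 1.79% of all 32817 windows. The E-box was found in the window of Fnip1, 75 bases before the start, against 7.15% of all windows. The M-box core, found in 14.2% of all windows, and the lysosomal core, found in 0.975%, were in no window of these genes, and the Fnip2 window held none of the 4 motifs. A match is a description of letters and not a site.

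Mitf lies on chromosome 6 from 97784013 to 97998310 on the plus strand (ENSMUSG00000035158, coordinates of the deposited table, build GRCm39). Of its 12 coding transcripts in the annotation, 10 end within 500 bases of each other and they begin at 4 separate places, so that counts of 3′ ends do not separate its isoforms. It also overlaps Gm66437, a long noncoding RNA of the opposite strand that was not analysed here. The level of Mitf in the 4 CONTROL_IT tumors was 751, 696, 812 and 1021 CPM. In PTX_IT it was 704, 559 and 525 CPM, in NCTD_IT 428, 338, 595 and 440 CPM, and in MIX_IT 329, 381, 338 and 360 CPM. Every NCTD_IT and MIX_IT tumor lay below every CONTROL_IT tumor, while 1 PTX_IT tumor lay above the lowest control. The means were 820 ± 142 CPM in CONTROL_IT (SD, n = 4), 596 ± 95.1 in PTX_IT (SD, n = 3), 450 ± 106 in NCTD_IT (SD, n = 4) and 352 ± 23.0 in MIX_IT (SD, n = 4). The difference from CONTROL_IT on the log2 scale was -0.46 (SE 0.20) for PTX_IT, -0.86 (SE 0.18) for NCTD_IT and -1.22 (SE 0.18) for MIX_IT. The SE does not account for the picking of Mitf in these tumors, and no test is read from it. MIX_IT lay wholly below PTX_IT, as 2.12% of all genes did, and overlapped with NCTD_IT. Of all genes tested, 8.97% lay wholly below the control in NCTD_IT and 4.99% in MIX_IT, and nothing is read from these shares for Mitf because it was picked in these tumors.

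In the IP tumors all 8 genes were tested. The choice of Mitf and Fnip2 was taken to rest on the IT tumors, and if IP values entered it too, their p-values here are not independent of it. Mitf was at 983 and 608 CPM in CONTROL_IP, at 463 and 577 in PTX_IP, at 461 and 518 in NCTD_IP and at 675 and 859 in MIX_IP. Both PTX_IP and both NCTD_IP tumors lay below both controls, and the MIX_IP tumors lay between the 2 controls. Of all genes, 16.1% lay wholly below the controls in PTX_IP and 18% in NCTD_IP. The log2 change was -0.61 (95% interval -1.19 to -0.04, unadjusted p = 0.0391, adjusted p = 0.906, edgeR) in PTX_IP. It was -0.70 (-1.27 to -0.12, unadjusted p = 0.0227, adjusted p = 0.999, edgeR) in NCTD_IP and -0.04 (-0.61 to 0.53, unadjusted p = 0.873, edgeR) in MIX_IP. None of the 3 differences passed the test. Without CONTROL_IP replicate 1, the higher control at 983 CPM, they were -0.22, -0.31 and 0.35. Without CONTROL_IP replicate 2, the lower control at 608 CPM and the IP tumor with Xist counts, they were -0.92, -1.004 and -0.35. With either control left out, the sign held in PTX_IP and NCTD_IP, and it did not in MIX_IP.

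Fnip2, a folliculin-interacting protein, lies on chromosome 3 from 79363281 to 79475103 on the minus strand (ENSMUSG00000061175). Its level was 29.3, 35.4, 32.2 and 34.7 CPM in CONTROL_IT and 59.8, 69.1 and 37.9 CPM in PTX_IT. It was 60.0, 84.0, 70.0 and 78.7 CPM in NCTD_IT and 101, 62.3, 121 and 68.0 CPM in MIX_IT. All 11 treated IT tumors lay above all 4 controls, and the 3 drug groups overlapped with each other. The means were 32.9 ± 2.78 CPM in CONTROL_IT (SD, n = 4), 55.6 ± 15.99 in PTX_IT (SD, n = 3), 73.2 ± 10.5 in NCTD_IT (SD, n = 4) and 88.1 ± 27.8 in MIX_IT (SD, n = 4). The log2 difference from CONTROL_IT was 0.75 (SE 0.25) for PTX_IT, 1.15 (SE 0.23) for NCTD_IT and 1.42 (SE 0.23) for MIX_IT. As for Mitf, no test is read from the SE. The shares of all genes wholly above the control were 3.79%, 7.8% and 4.91%. Nothing is read from these shares for Fnip2 because it was picked in these tumors.

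By the IP route Fnip2 was at 36.2 and 40.5 CPM in CONTROL_IP, 51.4 and 50.1 in PTX_IP, 42.8 and 55.2 in NCTD_IP and 41.4 and 47.3 in MIX_IP. All 6 treated tumors lay above both controls. Of all genes, 15.7%, 16.3% and 17% lay wholly above the controls in PTX_IP, NCTD_IP and MIX_IP. The log2 change was 0.40 (95% interval -0.05 to 0.86, unadjusted p = 0.0773, edgeR) in PTX_IP, 0.36 (-0.10 to 0.82, unadjusted p = 0.114) in NCTD_IP and 0.22 (-0.24 to 0.68, unadjusted p = 0.313) in MIX_IP. None passed the test, with adjusted p-values of 0.906, 0.999 and 0.999 (edgeR). As a description, the effect by the IT route minus that by the IP route was 0.35 for PTX, 0.80 for NCTD and 1.21 for MIX in Fnip2, and 0.15, -0.16 and -1.17 in Mitf. When each tumor was left out in turn, these differences ranged in Mitf from -0.24 to 0.46 for PTX, from -0.57 to 0.13 for NCTD and from -1.58 to -0.88 for MIX, so that the sign held for MIX alone. In Fnip2 they ranged from 0.18 to 0.55, from 0.62 to 0.98 and from 0.99 to 1.33. Of the 3 treatments, MIX had the widest gap between routes in both genes. Nothing is read from this order, because both genes were picked for their differences in the IT tumors.

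**Figure D1:**
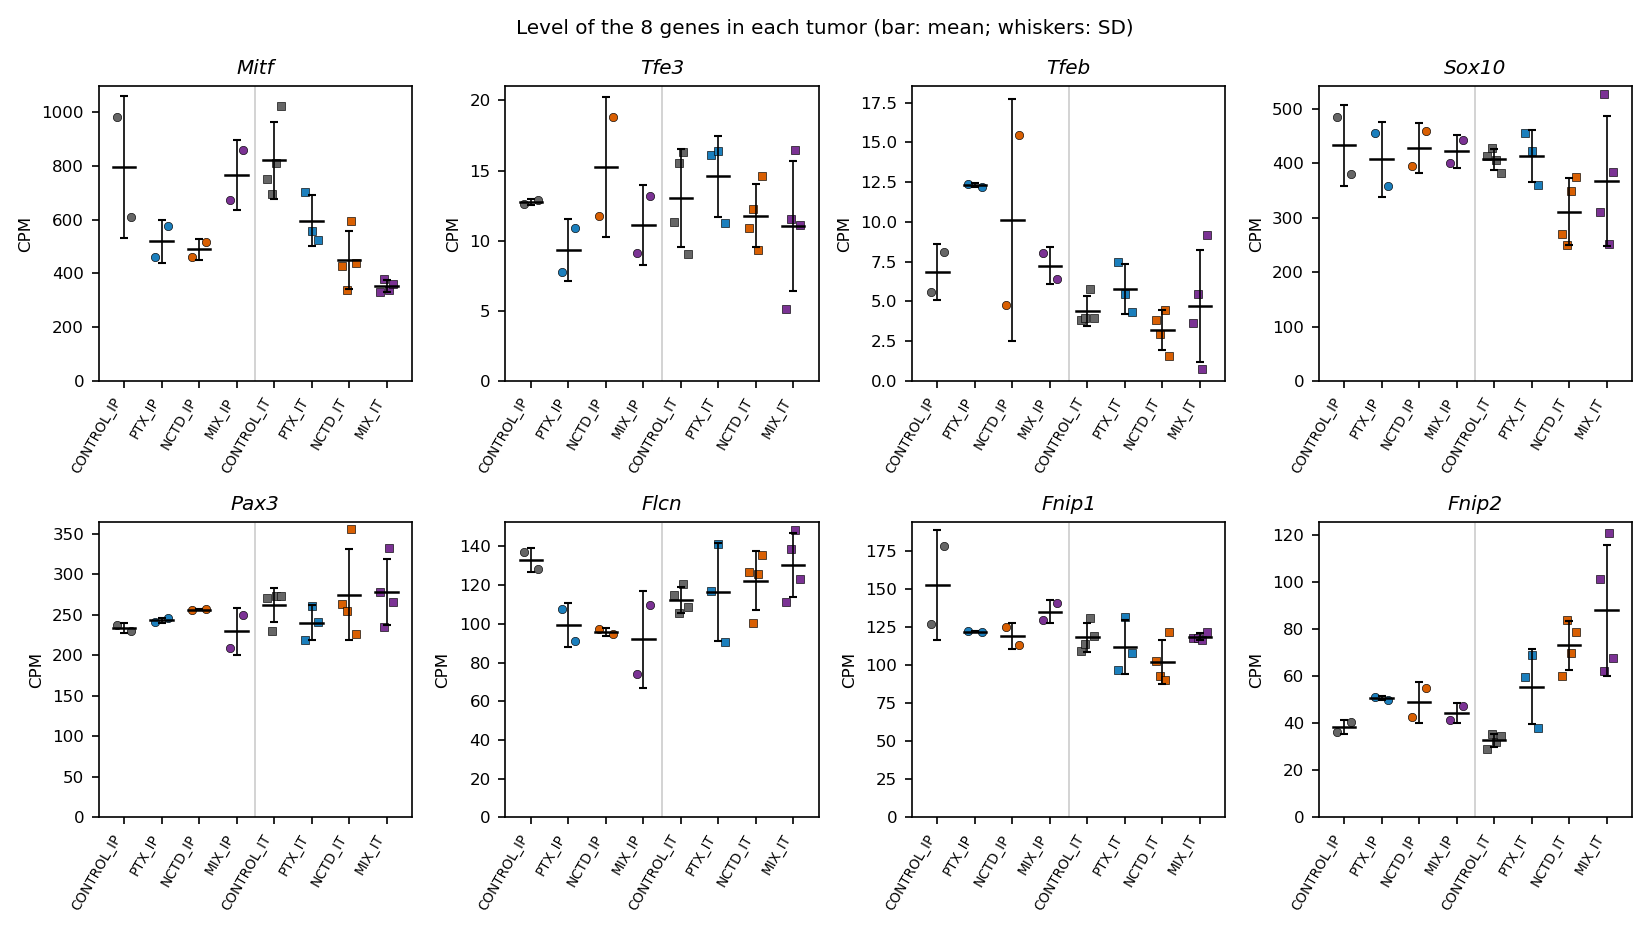
Level of each of the 8 genes in CPM (vertical axis, from 0, with a scale of its own for each gene) in every tumor of the 8 groups (horizontal axis, circles IP, squares IT), with the group mean (bar) and SD (whiskers). The MIX_IT squares of Mitf sit between 329 and 381 CPM, below the CONTROL_IT squares at 696 to 1021, while those of Fnip2 sit at 62.3 to 121 CPM, above the controls at 29.3 to 35.4.

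Markers of other cells moved with the IT groups, and in bulk tumors fewer cells of a type and less RNA per cell cannot be told apart. The summed level of the 7 melanocyte markers ranged from 26189 to 31909 CPM in CONTROL_IT, from 24654 to 30903 in PTX_IT, from 19426 to 27204 in NCTD_IT and from 15390 to 29102 in MIX_IT. The sum of 7 fibroblast markers ranged from 108 to 368 CPM in CONTROL_IT, from 259 to 810 in PTX_IT, from 390 to 1676 in NCTD_IT and from 493 to 8568 in MIX_IT. The sum of 5 endothelial markers was 40.7 to 68.3 CPM in CONTROL_IT, 62.6 to 90.3 in PTX_IT, 81.7 to 161 in NCTD_IT and 67.3 to 233 in MIX_IT. No marker of these 3 lists was at 0 over a whole IT group.

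Within MIX_IT the fibroblast sums were 1875, 493, 8568 and 895 CPM in the order of the tumors given above. The order of Fnip2 in these 4 tumors was that of the fibroblast sum, and the tumor with the lowest sum had the highest Mitf level, 381 CPM. In NCTD_IT the fibroblast sums were 747, 1676, 1279 and 390 CPM, where the tumor with the lowest sum had 78.7 CPM of Fnip2. The sum of 5 neutrophil markers was 1089 CPM in NCTD_IT replicate 18, whose Mitf level of 338 CPM was the lowest of its group, and 17.8 to 46.2 CPM in the other NCTD_IT tumors. It was 2.26 to 8.75 CPM in CONTROL_IT, 7.18 to 17.7 in PTX_IT and 14.0 to 22.5 in MIX_IT, so that every NCTD_IT and MIX_IT tumor lay above every control. The sum of 9 macrophage markers was 89.7 to 607 CPM in CONTROL_IT, 96.9 to 1155 in PTX_IT, 352 to 1238 in NCTD_IT and 214 to 657 in MIX_IT, with overlap of all groups. The part of these cells in the levels of Mitf and Fnip2 was not tested.

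Xist was higher in PTX_IT and NCTD_IT than in CONTROL_IT, in every tumor, so that its level and these treatments can hardly be told apart. In a model that also held the Xist level of each tumor (log2 CPM), the Fnip2 difference from CONTROL_IT was -0.14 in PTX_IT and 0.13 in NCTD_IT, against 0.75 and 1.15 without it. In MIX_IT, where Xist had 0 counts in all 4 tumors, it was 1.53. The Mitf differences in that model were -0.53 in PTX_IT, -0.95 in NCTD_IT and -1.21 in MIX_IT. In PTX_IT the tumor with 5 Xist counts had 37.9 CPM of Fnip2, and those with 33 and 36 counts had 59.8 and 69.1 CPM. The first of these also had the lowest fibroblast sum, 259 CPM against 810 and 686. Its macrophage sum was the lowest too, 96.9 CPM against 969 and 1155, and the part of these cells was not tested.

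**Figure D2:**
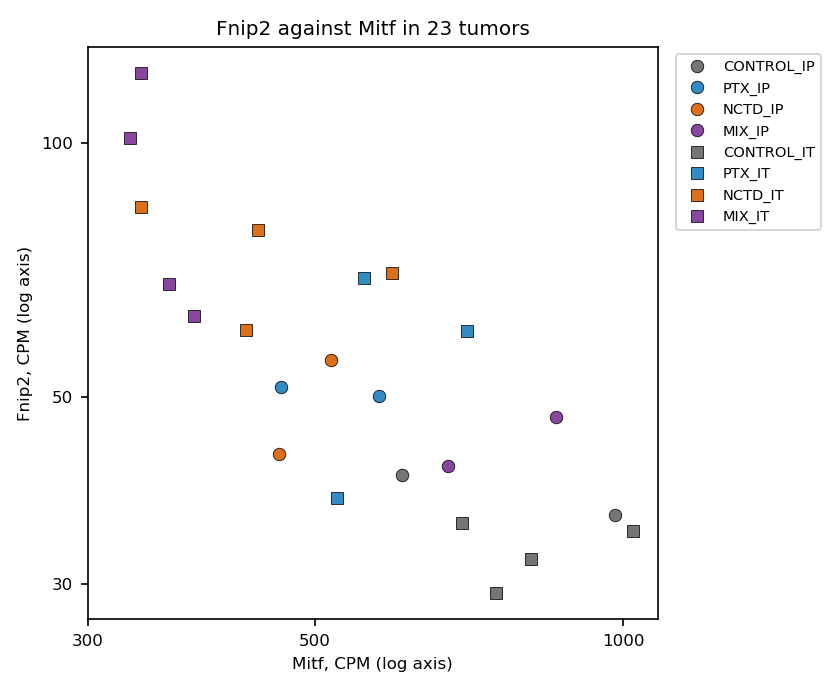
Fnip2 against Mitf, both in CPM on log axes, with 1 point for each of the 23 tumors (circles IP, squares IT, colours by treatment). CONTROL_IT lies at the lower right and MIX_IT at the upper left, where Mitf is at 329 to 381 CPM and Fnip2 at 62.3 to 121 CPM.

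Mitf and Fnip2 ran in opposite directions over the tumors. Pearson's r of their log2 CPM over the 23 tumors was -0.78 and Spearman's rho -0.79. It was -0.76 without the 2 tumors farthest from the median of Mitf, -0.57 within the 8 IP tumors and -0.82 within the 15 IT tumors. After removal of the group means it was -0.08, so that little of the relation was seen among tumors of the same group. These values are descriptions, since the tumors share controls, routes and the choice of both genes.

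The genes most like Mitf over the 23 tumors, among 13395 genes, were Dpp9 (r = 0.77), 2700097O09Rik (0.76), Faf1 (0.75), Nr4a3 (0.73) and N6amt1 (0.73). Nr4a3, an immediate-early nuclear receptor gene, had an r of 0.70 with Mitf after removal of the group means, and Dpp9, a dipeptidyl peptidase gene, 0.59. The r of 2700097O09Rik was then 0.45, that of Faf1 0.37 and that of N6amt1 0.33. The genes most like Fnip2 were Ddhd2 (0.89), Mdm2 (0.88), Sox13 (0.87), Dicer1 (0.87) and Sh3pxd2b (0.86). Mdm2 encodes the ubiquitin ligase of p53, and its r with Fnip2 was 0.75 after removal of the group means, 0.62 within the IP tumors and 0.89 within the IT tumors. Ddhd2, a phospholipase gene, reached 0.93 within the IT tumors and -0.01 within the IP tumors. Among the other members the highest r with Mitf was that of Sox10 (0.52), and the highest with Fnip2 was that of Pax3 (0.37).

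Sox10, the neural crest factor that acts on Mitf, lies on chromosome 15 from 79039108 to 79049440 on the minus strand (ENSMUSG00000033006). It was at 413, 428, 406 and 382 CPM in CONTROL_IT, 455, 423 and 361 in PTX_IT, 270, 249, 350 and 376 in NCTD_IT and 310, 528, 251 and 383 in MIX_IT. Every NCTD_IT tumor lay below every control, as 8.97% of all genes did, and the other drug groups spanned the controls. The log2 change was -0.39 (95% interval -0.81 to 0.04, unadjusted p = 0.0707, adjusted p = 0.273, edgeR) in NCTD_IT, which did not pass the test. It was 0.02 (-0.44 to 0.48) in PTX_IT and -0.15 (-0.58 to 0.27) in MIX_IT. Among IP tumors Sox10 ranged from 358 to 485 CPM, the drug groups overlapped with the controls, and the log2 changes were between -0.09 and -0.01.

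Pax3, a paired-box factor of the melanocyte lineage, lies on chromosome 1 from 78077904 to 78173771 on the minus strand (ENSMUSG00000004872). Its levels were 271, 231, 273 and 273 CPM in CONTROL_IT, 219, 261 and 242 in PTX_IT, 263, 254, 356 and 226 in NCTD_IT and 279, 235, 332 and 265 in MIX_IT. All 3 drug groups overlapped with the control. Log2 changes were -0.13 (95% interval -0.50 to 0.25) in PTX_IT, 0.07 (-0.28 to 0.42) in NCTD_IT and 0.08 (-0.27 to 0.43) in MIX_IT. Pax3 in the IP tumors was at 238 and 230 CPM in CONTROL_IP, 241 and 246 in PTX_IP, 256 and 257 in NCTD_IP and 209 and 250 in MIX_IP, with log2 changes of 0.06, 0.14 and -0.01 and no adjusted p below 0.991 (edgeR).

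The ratios of counts within a tumor set Mitf against its upstream regulators without the scaling of the library. The mean log2 ratio of Mitf to Sox10 was 1.00 ± 0.31 in CONTROL_IT (SD, n = 4), 0.52 ± 0.11 in PTX_IT (SD, n = 3), 0.52 ± 0.24 in NCTD_IT (SD, n = 4) and -0.01 ± 0.37 in MIX_IT (SD, n = 4). The ratio of Mitf to Pax3 was 1.63 ± 0.19, 1.30 ± 0.33, 0.70 ± 0.23 and 0.35 ± 0.29 in the same groups. For Sox10 the highest MIX_IT tumor (replicate 23, 0.43) lay below the lowest control (replicate 10, 0.70). For Pax3 the highest was another MIX_IT tumor (replicate 22, 0.70), below the lowest control (replicate 9, 1.47). The ratio to Pax3 in replicate 23, 0.02, and that to Sox10 in replicate 22, -0.47, were the lowest of MIX_IT. The IP tumors gave a Mitf to Pax3 ratio that was 2.04 and 1.40 in CONTROL_IP, 0.94 and 1.23 in PTX_IP, 0.85 and 1.01 in NCTD_IP and 1.69 and 1.78 in MIX_IP. Both single drugs lay below both controls there, and MIX_IP lay between them. The Mitf to Sox10 ratio was 1.018 and 0.68 in CONTROL_IP, 0.02 and 0.69 in PTX_IP, 0.22 and 0.17 in NCTD_IP and 0.76 and 0.95 in MIX_IP. Here PTX_IP overlapped with the controls, and NCTD_IP lay below them. Since the ratio contains Mitf, it is a description in the IT tumors, and it shows unequal change and not which gene changed.

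**Figure D3:**
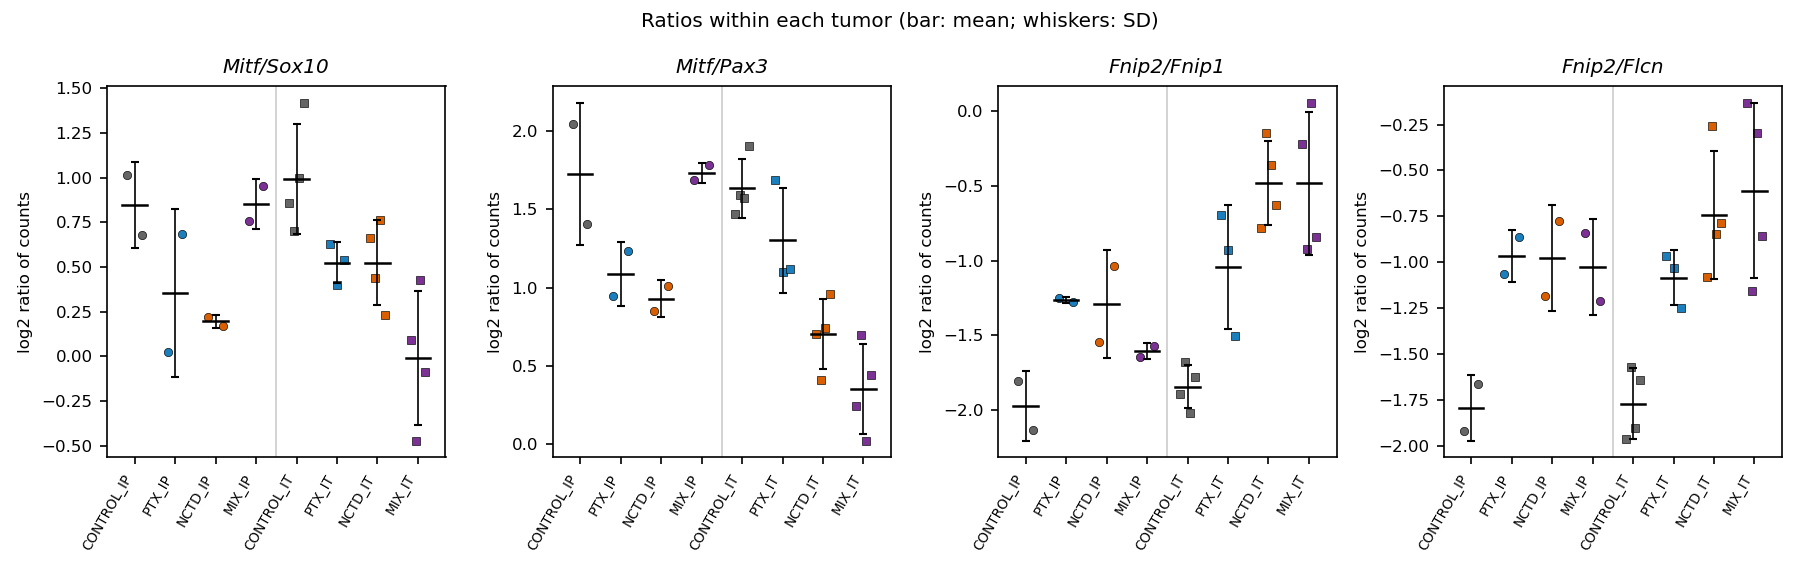
Log2 ratio of counts within each tumor (vertical axis, a count of 0.5 added to both genes) for Mitf to Sox10, Mitf to Pax3, Fnip2 to Fnip1 and Fnip2 to Flcn, with group mean (bar) and SD (whiskers) over the 8 groups (horizontal axis). Mitf to Pax3 falls from a mean of 1.63 in CONTROL_IT to 0.35 in MIX_IT, and Fnip2 to Fnip1 runs from -1.84 to -0.48.

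Tfe3, on the X chromosome from 7628799 to 7641441 on the plus strand (ENSMUSG00000000134), had levels from 5.13 to 18.8 CPM over all tumors. It was at 11.3, 15.5, 16.3 and 9.04 CPM in CONTROL_IT, 16.1, 16.4 and 11.3 in PTX_IT, 10.9, 12.3, 9.31 and 14.6 in NCTD_IT and 5.13, 11.5, 16.4 and 11.1 in MIX_IT. All IT drug groups overlapped with the control. Log2 changes were 0.15 (95% interval -0.58 to 0.89) in PTX_IT, -0.15 (-0.84 to 0.54) in NCTD_IT and -0.25 (-0.93 to 0.44) in MIX_IT. By the IP route they were -0.46 (-1.26 to 0.35), 0.27 (-0.53 to 1.07) and -0.19 (-1.002 to 0.63). Both PTX_IP tumors, at 7.76 and 10.9 CPM, lay below both controls, at 12.6 and 12.9 CPM, as 16.1% of all genes did.

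Tfeb, on chromosome 17 from 48047955 to 48103344 on the plus strand (ENSMUSG00000023990), was counted 3 to 83 times in a tumor, and its precision is limited by this depth. It was at 3.85, 3.94, 5.78 and 3.95 CPM in CONTROL_IT, 7.51, 5.46 and 4.36 in PTX_IT and 3.81, 2.93, 4.48 and 1.60 in NCTD_IT. It was at 3.63, 5.45, 0.725 and 9.14 CPM in MIX_IT, where 1 tumor stood at 3 counts and the others spread around the controls. The log2 changes were 0.39 (95% interval -0.88 to 1.66) in PTX_IT, -0.45 (-1.65 to 0.76) in NCTD_IT and 0.12 (-1.05 to 1.29) in MIX_IT. A difference of 2-fold in either direction lies inside the last interval. Tfeb in the IP tumors was at 5.62 and 8.09 CPM in CONTROL_IP, 12.4 and 12.2 in PTX_IP, 4.75 and 15.5 in NCTD_IP and 8.07 and 6.44 in MIX_IP. The PTX_IP log2 change of 0.84 (-0.30 to 1.97, unadjusted p = 0.132, adjusted p = 0.914, edgeR) did not pass the test. The NCTD_IP change of 0.57 became -0.51 without the tumor at 15.5 CPM (NCTD_IP replicate 6).

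Flcn, which encodes folliculin, lies on chromosome 11 from 59682234 to 59700842 on the minus strand (ENSMUSG00000032633) and overlaps Gm16062, a long noncoding RNA of the opposite strand with 451 counts over all tumors against 11849 for Flcn. The use of strand in the counting is not given in the sources used here, and reads of both genes cannot be told apart. Flcn was at 137 and 128 CPM in CONTROL_IP, 107 and 91.3 in PTX_IP, 97.3 and 94.5 in NCTD_IP and 74.2 and 110 in MIX_IP. All 6 treated IP tumors lay below both controls. Of all genes, 16.1%, 18% and 18.9% lay wholly below the controls in PTX_IP, NCTD_IP and MIX_IP. The log2 change was -0.42 (95% interval -0.90 to 0.07, unadjusted p = 0.0833, edgeR) in PTX_IP and -0.47 (-0.95 to 0.02, unadjusted p = 0.0582) in NCTD_IP. In MIX_IP it was -0.52 (-1.01 to -0.03, unadjusted p = 0.0388), and adjusted p-values were 0.906, 0.999 and 0.999, so that none passed the test.

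In the IT tumors Flcn was at 115, 105, 121 and 109 CPM in CONTROL_IT and at 117, 141 and 90.5 in PTX_IT. It was at 127, 100, 126 and 136 CPM in NCTD_IT and at 111, 139, 148 and 123 in MIX_IT. The groups overlapped, and the log2 changes were 0.05 (95% interval -0.32 to 0.41), 0.12 (-0.21 to 0.46) and 0.21 (-0.12 to 0.55). The effect by the IT route minus that by the IP route was 0.47 (unadjusted p = 0.110, edgeR) for PTX, 0.59 (unadjusted p = 0.0419) for NCTD and 0.75 (unadjusted p = 0.0127) for MIX. Over the 13395 genes tested the adjusted p-values were 0.892, 0.444 and 0.616, and 0% of the genes passed for any drug. At an unadjusted p below 0.05, 5.23%, 10.8% and 7.44% of the genes differed between routes, and Flcn was the single gene of the 6 that did so for NCTD and for MIX.

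Fnip1, the other folliculin-interacting protein, lies on chromosome 11 from 54329025 to 54409061 on the plus strand (ENSMUSG00000035992). It was at 109, 114, 131 and 119 CPM in CONTROL_IT, 96.8, 132 and 108 in PTX_IT, 103, 93.1, 90.0 and 122 in NCTD_IT and 118, 118, 116 and 122 in MIX_IT. The 4 MIX_IT tumors lay within the range of the controls, and the log2 change there was 0.00 (SE 0.14, 95% interval -0.30 to 0.30). It was -0.08 (-0.41 to 0.25) in PTX_IT and -0.21 (-0.52 to 0.09) in NCTD_IT. Fnip1 in the IP tumors was at 127 and 178 CPM in CONTROL_IP, 122 and 122 in PTX_IP, 125 and 113 in NCTD_IP and 130 and 141 in MIX_IP, and the smallest unadjusted p was 0.115 (edgeR, adjusted p = 0.999).

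The log2 ratio of Fnip2 to Fnip1 had a mean of -1.84 ± 0.15 in CONTROL_IT (SD, n = 4), -1.04 ± 0.42 in PTX_IT (SD, n = 3), -0.48 ± 0.28 in NCTD_IT (SD, n = 4) and -0.48 ± 0.48 in MIX_IT (SD, n = 4). The ratio of Fnip2 to Flcn was -1.77 ± 0.19, -1.08 ± 0.15, -0.74 ± 0.35 and -0.61 ± 0.48 in the same groups. The highest control lay below the lowest treated tumor for both ratios. Both ratios contain Fnip2, which was picked in these tumors, so they are a description and nothing is read from this separation. In the IP tumors the Fnip2 to Flcn ratio was -1.92 and -1.66 in CONTROL_IP, and the means were -0.96 ± 0.14 in PTX_IP, -0.98 ± 0.29 in NCTD_IP and -1.03 ± 0.26 in MIX_IP (SD, n = 2 each). The 6 treated IP tumors, at -1.21 to -0.77, lay above both controls, and with 2 tumors a group such separation is common.

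Read together, no member was called in the IP tumors (0 of 8 in PTX_IP, NCTD_IP and MIX_IP, against 0% of 12424 genes, edgeR, adjusted p below 0.05). DESeq2 called 0 as well, against 0.0186%, 0.253% and 0.0452% of the genes. In NCTD_IP it gave no adjusted p for Tfe3, Tfeb and Fnip2, so that these genes could not be called there. At an unadjusted p below 0.05 edgeR gave 1 member of 8 in each, against 5.3%, 3.59% and 2.94% of all genes. In PTX_IP, 3 members lay wholly above the control and 4 wholly below, against 15.7% and 16.1% of all genes. In NCTD_IP these were 2 and 3 members, against 16.3% and 18%, and in MIX_IP 1 and 1, against 17% and 18.9%. With 2 tumors a group such separation is common.

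Of the 6 members tested in the IT tumors none was called in PTX_IT (0% of 12480 genes), NCTD_IT (1.37%) or MIX_IT (0%) by edgeR, nor by DESeq2 (0.0773%, 10.6% and 2.15% of the genes). None had an unadjusted p below 0.05 by edgeR, against 6.35%, 21.6% and 13% of all genes, and 1 had by DESeq2, Sox10 in NCTD_IT (unadjusted p = 0.0322, adjusted p = 0.162), against 4.76%, 13.8% and 8.02%. For Sox10, Pax3, Flcn and Fnip1 the 95% intervals of the 3 comparisons ran from -0.81 to 0.55. MIX_IT against the single drugs gave no call among the 6 either, against 0.00801% of the genes for NCTD_IT and 0% for PTX_IT by edgeR and 0.0811% and 0.0431% by DESeq2. The smallest unadjusted p was 0.152 for Fnip1 against NCTD_IT and 0.261 for Pax3 against PTX_IT, where 6.02% and 3.75% of all genes were below 0.05.

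**Figure D4:**
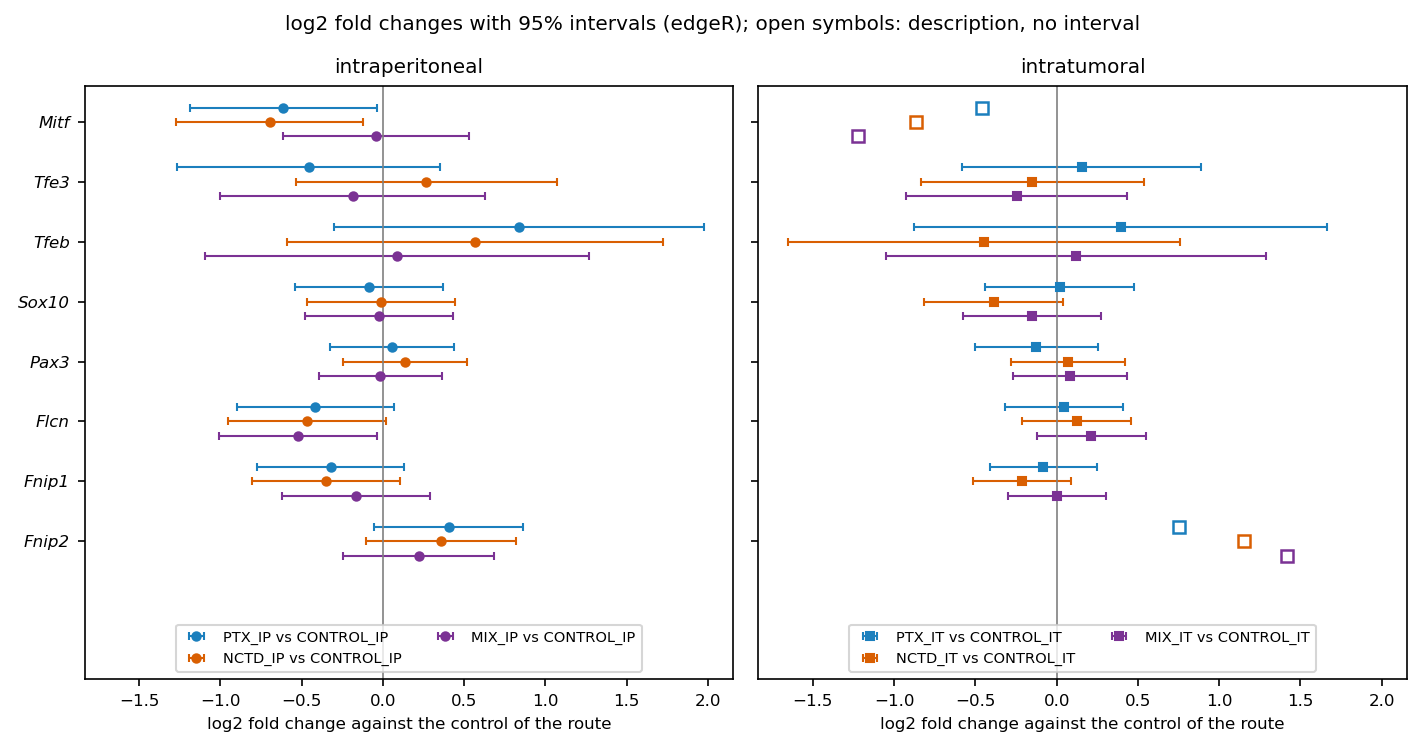
Log2 fold change against the control of the same route (horizontal axis) for the 8 genes (vertical axis) and the 3 treatments, IP on the left and IT on the right, with 95% intervals from edgeR as whiskers. Open symbols are Mitf and Fnip2 in the IT tumors, given without an interval, which run from -0.46 to -1.22 and from 0.75 to 1.42, and the intervals of the other 6 genes in IT all include 0.

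The remaining relative, Tfec, was at the edge of detection, with 0, 2.41, 0.251 and 0.282 CPM in CONTROL_IT. It was at 1.95, 0.964 and 0.769 CPM in PTX_IT, 2.95, 6.73, 0.345 and 3.19 in NCTD_IT and 2.78, 2.80, 2.66 and 0.998 in MIX_IT, and all 3 groups overlapped with the control. The log2 changes were 0.66, 2.07 (unadjusted p = 0.0403, adjusted p = 0.207, edgeR) and 1.55, and none passed the test.

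Of 17 further regulators of the melanocyte lineage (such as Kit, Mc1r, Lef1 and Irf4) 13 were tested in the IT tumors. Their median log2 change was 0.20 in PTX_IT, 0.37 in NCTD_IT and 0.25 in MIX_IT. At an unadjusted p below 0.05 (edgeR) 2, 4 and 2 were higher and 0 lower. Of all 12480 genes, 522 were higher and 270 lower in PTX_IT. The shares of all genes higher and lower were 11.6% and 10% in NCTD_IT, and 7.88% and 5.11% in MIX_IT. Irf4, a factor that acts with MITF on tyrosinase, rose in NCTD_IT by 1.72 on the log2 scale (SE 0.33, adjusted p = 0.0280, edgeR), and it was the single gene of this list called by edgeR. DESeq2 called 3 genes of the list in NCTD_IT and 1 in MIX_IT, all higher, against 10.6% and 2.15% of all genes. Irf4 was at 3.34, 3.06, 6.03 and 4.52 CPM in CONTROL_IT, 13.1, 11.2 and 7.18 in PTX_IT, 13.7, 12.3, 12.1 and 18.1 in NCTD_IT and 5.77, 9.97, 11.1 and 10.6 in MIX_IT. All PTX_IT and NCTD_IT tumors lay above all controls, as 3.79% and 7.8% of all genes did, and MIX_IT overlapped with the controls. The call was lost without any of CONTROL_IT replicates 9, 11 and 12 or NCTD_IT replicates 17 and 18 (adjusted p from 0.0603 to 0.117), and in a model with the Xist level the change was 0.92 (adjusted p = 0.848). Irf4 is also a gene of lymphoid and myeloid cells. The sum of 6 T and NK cell markers, of which 0 were at 0 in each IT group, was 0.771 to 36.7 CPM in CONTROL_IT, 2.82 to 72.6 in PTX_IT and 3.63 to 52.3 in MIX_IT. In NCTD_IT it was 48.2, 19.3, 9.66 and 116 CPM, in the same order of tumors and with the same ranking as Irf4. The macrophage sums, given above, had means of 283 CPM in CONTROL_IT, 740 in PTX_IT, 717 in NCTD_IT and 409 in MIX_IT. The part of these cells in the Irf4 level was not tested.

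Mc1r, the melanocortin receptor that raises cAMP, was at 525, 494, 495 and 424 CPM in CONTROL_IT and at 594 to 783 in PTX_IT, 607 to 839 in NCTD_IT and 639 to 979 in MIX_IT. Every treated IT tumor lay above every control, and 3.79%, 7.8% and 4.91% of all genes lay wholly above it in these groups. Its log2 changes of 0.44, 0.59 and 0.64 had adjusted p-values of 0.785, 0.0701 and 0.165 (edgeR) and did not pass the test. The NCTD_IT change passed in edgeR with only the 2 groups in the model (adjusted p = 0.0326) and with all 23 tumors (adjusted p = 0.0294). By DESeq2 it passed in NCTD_IT (adjusted p = 0.00604) and MIX_IT (adjusted p = 0.0377). Kit, a receptor tyrosine kinase of melanocytes, had log2 changes of -0.20 in PTX_IT, 0.72 in NCTD_IT and 0.16 in MIX_IT, which did not pass either. Lef1 had at most 4.84 CPM in any tumor and was not tested in the IT tumors.

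Of 24 pigment and lineage targets of MITF, 22 were tested, and none passed with edgeR in any of the 6 comparisons with control. Their median log2 change was -0.05 in PTX_IT, -0.11 in NCTD_IT and -0.09 in MIX_IT, against 0.02, 0.03 and 0.01 over all genes tested. At an unadjusted p below 0.05, 1 was higher and 4 were lower in NCTD_IT, against 11.6% and 10% of all genes. DESeq2 called 1 higher and 1 lower in NCTD_IT and 1 higher in MIX_IT, against 10.6% and 2.15% of all genes. Tyr, which encodes tyrosinase, had log2 changes of 0.16, 0.18 and 0.13 in the 3 IT groups. Pmel, of the melanosome fibrils, had -0.09, -0.31 and -0.28. Dct, the next enzyme of the pathway, had -0.15, -0.46 and -0.39. The list held Cdk4, a cell cycle kinase, whose change in NCTD_IT had the smallest p of the list (-0.78, unadjusted p = 0.00574, adjusted p = 0.0873, edgeR, against 0.0271 by DESeq2), and Cdk2, which had it in MIX_IT (0.72, unadjusted p = 0.00193, adjusted p = 0.166, against 0.0372 by DESeq2).

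Of 32 lysosome and autophagy targets of TFEB and TFE3, 31 were tested and none was called by edgeR, with median log2 changes of 0.13, 0.06 and 0.18 in PTX_IT, NCTD_IT and MIX_IT. DESeq2 called 1 higher in PTX_IT, 2 higher and 2 lower in NCTD_IT and 0 in MIX_IT. The shares of all genes called by DESeq2 were 0.0773%, 10.6% and 2.15%. Gpnmb, a melanosome and lysosome glycoprotein, was at 2160 to 2722 CPM in CONTROL_IT and at 1626 to 1935 in NCTD_IT. These groups did not overlap, and 8.97% of all genes lay wholly below the control there. The log2 change of Gpnmb, -0.50, did not pass (adjusted p = 0.118, edgeR, against 0.0162 by DESeq2). Atp6ap1, a subunit of the proton pump of the lysosome, had changes of 0.61, 0.70 and 0.51 with adjusted p-values of 0.785, 0.0777 and 0.313 (edgeR), and the NCTD_IT change passed with DESeq2 (adjusted p = 0.00494). Ppargc1a, a coactivator of mitochondrial genes, had the smallest p of the list in MIX_IT (0.89, adjusted p = 0.263, edgeR). Without the filter on low counts it passed there (adjusted p = 0.00950), and in MIX_IT against NCTD_IT (0.0226) and PTX_IT (0.00828).

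Sqstm1, the autophagy receptor p62, was at 306 and 339 CPM in CONTROL_IP and at 785 and 818 in MIX_IP. The log2 change of 1.32 had an unadjusted p of 0.00273 and an adjusted p of 0.999 by edgeR. It passed with DESeq2 (adjusted p = 5.2e-09) and without the filter on low counts (adjusted p = 9.96e-06). Its levels were 627, 571 and 667 CPM in PTX_IT, above the CONTROL_IT range of 338 to 408 (log2 change 0.73, adjusted p = 0.786 by edgeR and 0.00284 by DESeq2), and 232 to 798 in MIX_IT. Of all genes, 3.79% lay wholly above the control in PTX_IT.

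Of 27 further genes of the folliculin, Rag and mTORC1 machinery, 26 were tested and none was called by edgeR. DESeq2 called 3 in NCTD_IT, all lower, against 10.6% of all genes, and 0 in PTX_IT and MIX_IT. The medians were 0.03 in PTX_IT, -0.05 in NCTD_IT and -0.06 in MIX_IT. At an unadjusted p below 0.05, 1 was higher and 4 were lower in NCTD_IT, against 11.6% and 10% of all genes, and 2 were higher and 2 lower in MIX_IT, against 7.88% and 5.11%. Lamtor5, of the Ragulator scaffold on which the Rag GTPases sit, was at 133, 122, 119 and 117 CPM in CONTROL_IT, and at 77.0 to 87.6 in NCTD_IT. It had log2 changes of -0.41, -0.59 and -0.46 in PTX_IT, NCTD_IT and MIX_IT, with adjusted p-values of 0.785, 0.0579 and 0.222 (edgeR), and the NCTD_IT change passed with DESeq2 (adjusted p = 0.00732). Prkag1, a subunit of AMPK, had the smallest p of the list in MIX_IT (0.69, adjusted p = 0.196). Rragd, which encodes RagD, had changes of 0.14, -0.28 and -0.07.

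By the IP route none of the genes of these 4 lists was called by edgeR. The medians of the lineage regulators were -0.08 in PTX_IP, -0.15 in NCTD_IP and -0.01 in MIX_IP, and those of the pigment targets were -0.06, -0.09 and -0.14. The lysosome list had medians of -0.06, 0.03 and -0.07, and the folliculin and mTORC1 list -0.01, 0.02 and 0.02, against 0.01, -0.01 and -0.01 over all genes tested. The smallest p of a list belonged in PTX_IP to Mc1r (0.31), Ppargc1a (-0.77), Atp6v0d2 (-1.19) and Prkaa2 (-0.88). In NCTD_IP it belonged to Mc1r (0.46), Rab27a (-0.40), Naglu (0.36) and Prkag1 (0.75), and in MIX_IP to Tfap2a (0.56), Rab32 (-0.37), Sqstm1 (1.32) and Prkab2 (0.46).

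**Figure D5:**
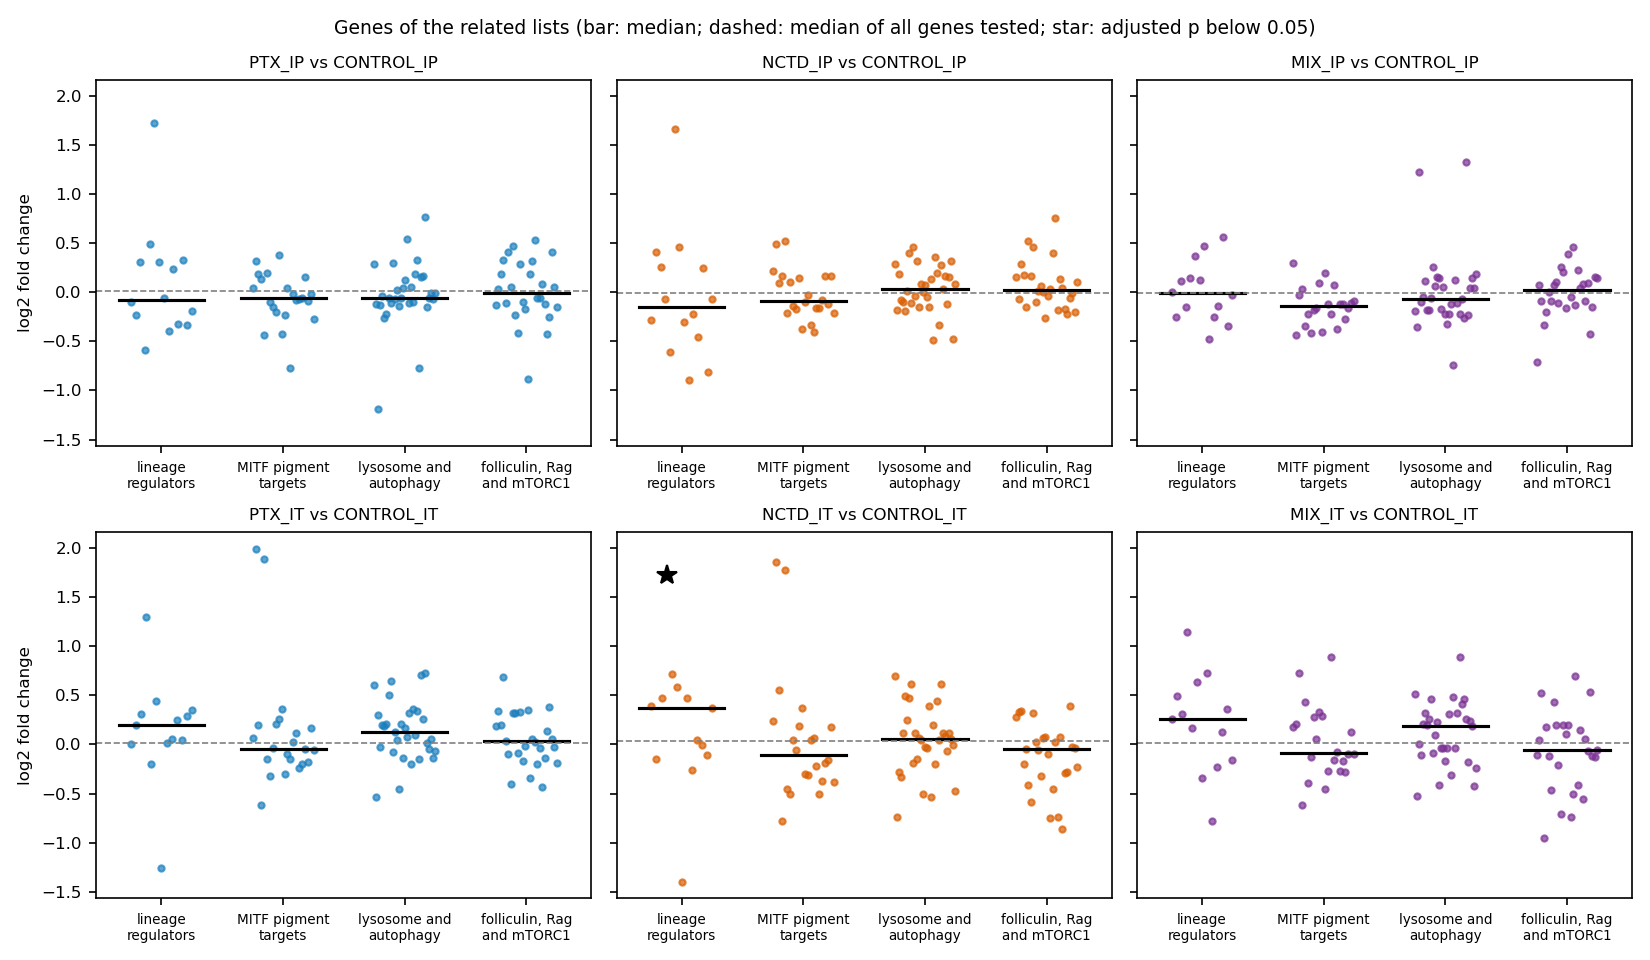
Log2 fold change (vertical axis) of the genes of 4 lists around MITF, TFEB and folliculin (horizontal axis, members left out) in the 6 comparisons with control, 1 point per gene, with the list median (bar) and the median of all genes tested (dashed line). The star is Irf4 in NCTD_IT at 1.72, the single gene past the adjusted threshold by edgeR, and the list medians lie between -0.15 and 0.37.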

How the data were processed

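RNA of 23 tumors in 8 groups was sequenced from the 3′ end. The tumors were grouped by their labels. The authors trimmed reads with Trimmomatic, aligned them to GRCm39 with STAR 2.7.11b and deposited raw counts of reads per gene, quantified with STAR. Quality was checked with FastQC, and the versions are those of the submitters' processing notes. Totals per tumor were 2861578 to 6702374 counts. The use of strand and of molecular identifiers is not given in the sources used here. A group's samples are separate tumors by their labels, which say no more of their source, and p-values measure the spread between these tumors.

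Counts were tested in R 4.3.3 with the quasi-likelihood test of edgeR 4.0.16 (two-sided, TMM, genes kept by filterByExpr with count and total cutoffs of 10 and 15, Benjamini-Hochberg adjustment over all genes tested, threshold 0.05), in 1 model of 4 groups for each route and in a model of all 23 tumors for differences between routes. DESeq2 1.42.0, DESeq2's size factors, no filter, fewer or more groups in the model, an Xist covariate and leaving out each tumor were alternatives. Correlations used log2 CPM with a prior count of 2. Column values of all 23 tumors were used. Promoter windows came from RefSeq (GRCm38.p6) and transcripts from GENCODE, and coordinates of genes are those of the deposited table.

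The members and lists were chosen with earlier results of these data known. Named were the 8 members, Xist, the genes called in a list (at most 4) or otherwise the gene of smallest p, the examples Tfec, Lef1, Kit, Tyr, Pmel, Dct, Gpnmb, Sqstm1 and Rragd, and the 5 genes most correlated with Mitf and with Fnip2. The model was run on simulated counts with planted changes larger than any given here for the 8 members. That run does not show how often changes of their size would be found. Recovery of planted changes was required for the models of each route, not for that of route differences.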

Additional observations from a re-analysis of the deposited data

Results flagged for a closer look

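In groups of 4 tumors, 24 sets of a gene and a group were checked for a tumor that stands apart from the rest of its group, and about 1.2 would be marked by chance. Tfeb in CONTROL_IT replicate 11 was at 5.78 CPM, with the other 3 tumors between 3.85 and 3.95 CPM. Pax3 in CONTROL_IT replicate 10 was at 231 CPM, with the others between 271 and 273 CPM.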

How the results depend on the processing

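No paired analysis was possible because no replicate number occurs in more than 1 group. The count of members called was 0 in the IP comparisons, and that of the 6 members other than Mitf and Fnip2 was 0 in the IT comparisons and the route differences, and both stayed 0 under each alternative run. DESeq2 gave no adjusted p for Tfe3, Tfeb and Fnip2 in NCTD_IP, nor for Tfe3 and Tfeb in the route differences of NCTD and MIX. Mitf kept its direction against CONTROL_IT in all 3 drug groups under each alternative, with leave-one-out ranges of -0.61 to -0.34 in PTX_IT, -1.02 to -0.73 in NCTD_IT and -1.29 to -1.09 in MIX_IT, and Fnip2 ranged from 0.57 to 0.95, 1.08 to 1.25 and 1.22 to 1.55. With the Xist level in the model, log2 changes against CONTROL_IT turned sign in PTX_IT for the members Fnip2 (-0.14), Tfe3 (-0.35), Pax3 (0.12), Flcn (-0.28) and Sox10 (-0.16), and for Tfec (-1.48), Kit (1.06), Atp6v0d2 (-3.94), Naglu (-0.44), Cdk4 (0.13) and Atp6ap1 (-0.41). In NCTD_IT they did so for the member Flcn (-0.24), and for Tfec (-0.54), Tyr (-0.10), Rragd (0.033), Rab32 (0.36), Prkab2 (0.30), Tfap2a (0.31), Cdk4 (0.12) and Atp6ap1 (-0.47). Tyr, Ppargc1a and Prkag1 in PTX_IT, Prkag1 in NCTD_IT and Kit and Naglu in MIX_IT also turned sign, with a shift smaller than the spread between tumors. The cause was not tested. When each tumor was left out in turn, the change ranged from -3.98 to 2.69 for Lef1 and from -0.086 to 0.57 for Atp6ap1 in PTX_IP. In NCTD_IP it ranged from -0.51 to 1.17 for Tfeb, from -0.73 to 0.21 for Ppargc1a and from -0.047 to 0.56 for Atp6ap1, and the IT minus IP difference of Tfeb for NCTD ranged from -1.62 to 0.062. Counts over all genes moved more. DESeq2 called 4, 8 and 8 genes in PTX_IP, NCTD_IP and MIX_IP, and 14, 1380 and 228 in PTX_IT, NCTD_IT and MIX_IT. It called 12 and 10 for MIX_IT against NCTD_IT and PTX_IT, and 1, 78 and 6 for the route differences of PTX, NCTD and MIX. Without the filter the counts were 71, 71, 51, 222, 1190, 364, 190, 109, 110, 283 and 139 in the same order. With only the groups compared in the model, NCTD_IT had 946 calls, against 171 and 777 with all 23 tumors, and 0 with the Xist level. Leaving out 1 tumor gave 0 to 191 calls there. MIX_IT had 9 calls with all 23 tumors, 22 with the Xist level and 0 to 3 with 1 tumor left out. NCTD_IP and MIX_IP had 2 each with only 2 groups, and MIX_IT against NCTD_IT had 3 with all tumors and 0 with 2 groups. Depth limits Tfeb, Tfec and Lef1.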
